A study of Mus musculus with 6 samples.

Results

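Fibrinogen is the soluble blood protein that thrombin turns into the fibrin of a clot. It is built from pairs of alpha, beta and gamma chains, which the neighbouring genes Fga, Fgb and Fgg encode. Hepatocytes are its main source, and their fibrinogen genes are induced in the acute phase response, in which interleukin-6 acts through its receptor subunit gp130 and the transcription factor STAT3. Fibrinogen chain transcripts have also been described in injured rodent kidney. Serpina3n, Hp, Cp and Saa3 are other acute phase genes: a serine protease inhibitor related to human antichymotrypsin, the hemoglobin-binding protein haptoglobin, the copper-containing ferroxidase ceruloplasmin and a serum amyloid A that mice also make outside the liver.

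These 7 genes were followed among 18238 genes tested on expression arrays of injured mouse kidney, and all 7 passed the filter on dim signals. They were selected by symbol, with the probe set of highest mean over the 6 arrays where a gene had several, and the set was put together because Fgg was among the genes with the largest differences between the groups compared here. The member values are therefore given as a description with no test.

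All kidneys came from male BALB/c mice aged 10 to 12 weeks. One kidney was clamped for 26 min and reperfused while the opposite kidney was removed, and kidneys of a similar degree of injury were chosen by serum creatinine, blood urea nitrogen and Kim1. At 24 h the mice received either vehicle (3 arrays), a 20% solution of 2-(Hydroxypropyl)-b-cyclodextrin made up in water, or m4PTB at 100 mg/kg (3 arrays). m4PTB is methyl 4-(phenylthio)butanoate, which is known to inhibit histone deacetylases. Kidneys were taken 12 h later, at day 1.5. Every group was injured, and an uninjured kidney was not analysed here. Nothing in the sources used here says whether an array held 1 animal.

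Values are log2 signals, so a difference of 1 is a 2-fold change, and the number of arrays limits the precision. Vehicle replicate 3 stood somewhat apart, with correlations to the other arrays of 0.985 to 0.989 over the genes tested, while the mean correlation of every other array to the rest was 0.993 to 0.994 after rounding. Markers of the proximal tubule, the tissue's main cell type, were present, with 11 of 11 above the background limit on at least 3 arrays. This limit is the 90th percentile of each array's negative control probe sets and was 7.73 to 7.86. The median of those controls was 5.56 on vehicle replicate 3 and 5.88 to 5.95 on the other arrays. Both guide the reading of dim signals, since background compresses differences of dim genes toward 0. Where a value is followed by SE, that is the standard error from limma. By limma, 0 of the 18238 genes had an adjusted p under 0.05 (smallest adjusted p = 0.495).

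Of the 7 members, 6 had a higher mean in m4PTB than in vehicle kidneys, and so did 54.5% of all genes tested, while 45.5% had a lower one. The median difference over the members was 0.28 on the log2 scale, beside 0.01 over all genes tested. For 3 members, Fgg, Serpina3n and Fga, every m4PTB array lay above every vehicle array, which held for 9.38% of all genes tested (the reverse order for 5.21%). The other 4, Fgb, Hp, Cp and Saa3, overlapped between the groups. A difference of at least 1.5-fold was seen for Fgg and Serpina3n, and for 0.504% of all genes. Since the genes were selected on this comparison, these shares say nothing about the members as a class.

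**Figure D1:**
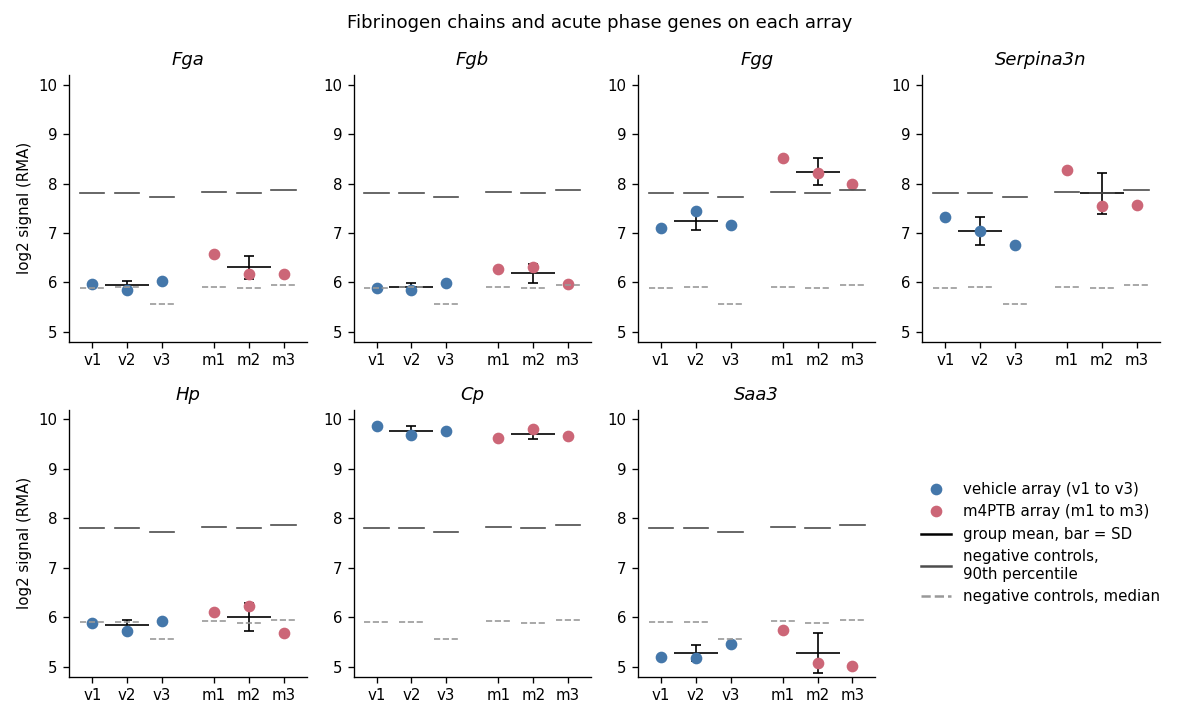
Log2 RMA signal (vertical axis) of each member on the 3 vehicle arrays (v1 to v3) and the 3 m4PTB arrays (m1 to m3). Black bars are group means with SD, solid grey ticks the background limit and dashed ticks the median of the negative controls on each array. Fgg crossed from below to above the solid ticks, Cp lay above them on all 6 arrays, and Fga, Fgb, Hp and Saa3 lay below them on all 6.

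The gamma chain gene Fgg showed the largest difference of the 7. Its log2 signal was 7.10, 7.43 and 7.16 on vehicle replicates 1, 2 and 3, and 8.52, 8.21 and 7.99 on m4PTB replicates 1, 2 and 3. All m4PTB values were above all vehicle values, with a gap of 0.56 between the lowest m4PTB and the highest vehicle array. The group means were 7.23 ± 0.18 for vehicle and 8.24 ± 0.27 for m4PTB (SD, n = 3 each), 1.01 apart on the log2 scale (SE 0.15), or 2.01-fold. Ordered from the most positive difference down, Fgg ranked 3 of 18238 genes. On the vehicle arrays the signal was above 79.3% to 85.3% of the negative controls, and on the m4PTB arrays above 91.2% to 95.3% of them. Fgg was thus the only one of the 7 that lay below the background limit on every vehicle array and above it on every m4PTB array.

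The alpha chain gene Fga had a smaller difference. Its signal was 5.96, 5.85 and 6.03 on the vehicle arrays and 6.57, 6.17 and 6.17 on the m4PTB arrays. The groups did not overlap, but the gap was 0.14, smaller than the vehicle range of 0.18. The log2 difference was 0.36 (SE 0.12), or 1.28-fold. All 6 values lay below the background limit and 5 of them above the median. Against each array's own negative controls the Fga groups overlapped. The signal was above 51.7%, 48.9% and 60.2% of them on the vehicle arrays and 67.5%, 57.1% and 55.5% on the m4PTB arrays.

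Fga alone among the members had a second probe set. The pair is annotated to different RefSeq transcripts of Fga, and the alpha chain is known in a common and an extended form. The second probe set gave 5.56, 5.65 and 6.0 on the vehicle arrays and 5.91, 5.66 and 5.58 on the m4PTB arrays. These values overlapped, with a log2 difference of -0.02 (SE 0.14), so the higher m4PTB signal of Fga was seen with the first probe set and not the second. The second probe set exceeded the negative-control median on 1 array. With both probe sets averaged, the difference of Fga was 0.17.

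The beta chain gene Fgb had the smallest difference of the 3 chains. Its signal was 5.88, 5.84 and 5.99 on the vehicle arrays and 6.27, 6.32 and 5.97 on the m4PTB arrays. m4PTB replicates 1 and 2 lay above all vehicle arrays, while replicate 3 was 0.02 below vehicle replicate 3. The log2 difference was 0.28 (SE 0.10), or 1.22-fold.

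Averaged over the 3 chains, the log2 signal was 6.32, 6.38 and 6.39 on the vehicle arrays and 7.12, 6.90 and 6.71 on the m4PTB arrays. The vehicle arrays were close together (SD of 0.04) and the m4PTB arrays more spread (SD of 0.20), with a gap of 0.32 between the groups. The difference of this mean was 0.55, of which Fgg contributed most. Leaving out 1 array at a time gave 0.45 to 0.65, and it was 0.57 without vehicle replicate 3.

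**Figure D2:**
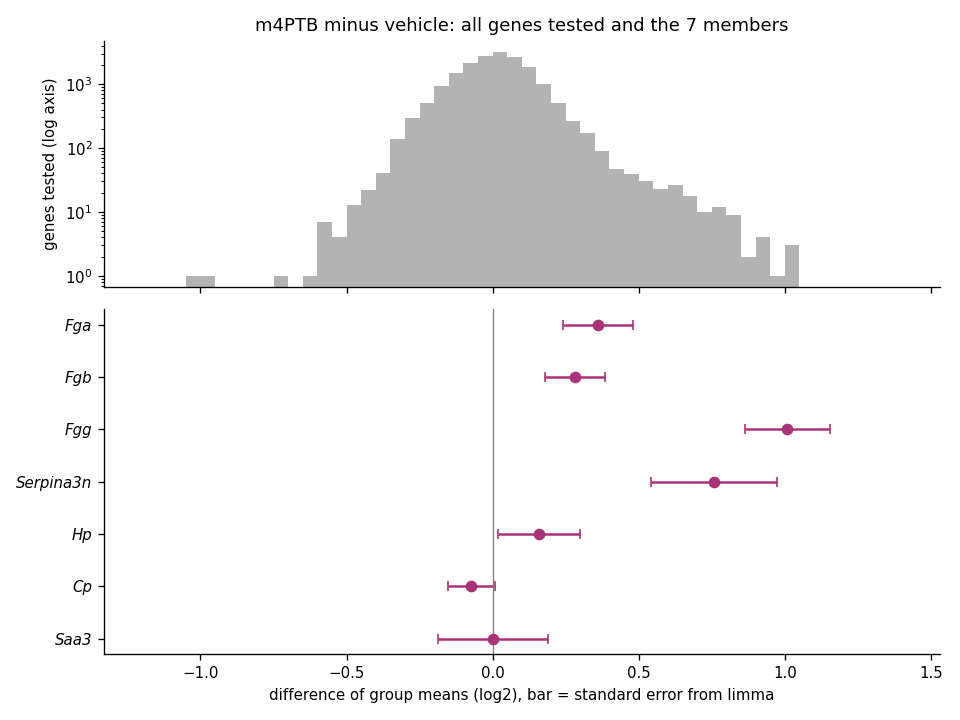
The upper panel counts all genes tested by their m4PTB minus vehicle difference (log2, logarithmic count axis). The lower panel shows the 7 members with the standard error as bars, of which Fgg at 1.01 and Serpina3n at 0.76 lay in the right tail, while Cp and Saa3 lay near 0.

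In the RefSeq gene table the 3 chain genes are immediate neighbours on mouse chromosome 3, in the order Fgg, Fga, Fgb among protein-coding genes. Lrat, which encodes lecithin retinol acyltransferase, precedes Fgg, and Plrg1, which encodes a spliceosome component, follows Fgb. For neither of these flanking genes did the groups separate. Plrg1 differed by -0.02 (SE 0.08) and Lrat by -0.10 (SE 0.09). Their adjusted p by limma were 0.936 and 0.758. Further out, Rbm46 beyond Lrat and Gm10710 and Dchs2 beyond Plrg1 were lower on all m4PTB arrays, by differences of -0.18, -0.32 and -0.28. These 3 were picked out after their values were seen. Rbm46 and Dchs2 lay below the background limit on all 6 arrays. For Rbm46 the lowest vehicle and the highest m4PTB array were both at 5.62 after rounding. Dchs2 was at 5.23, 5.18 and 5.69 on the vehicle arrays. Sfrp2, beyond Dchs2, differed by 0.05 with overlap.

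The 250 bases before the start of each chain gene are shown because the 3 genes lie together and are known targets of interleukin-6. The sequences are from RefSeq, build GRCm38.p6, written 5′ to 3′ on the strand of the gene, and capitals mark matches on either strand to the motifs named after them. Fgg is at chr3:83007474-83007723 (plus strand), Fga at chr3:83025903-83026152 (plus strand) and Fgb at chr3:83049864-83050113 (minus strand).
Fgg: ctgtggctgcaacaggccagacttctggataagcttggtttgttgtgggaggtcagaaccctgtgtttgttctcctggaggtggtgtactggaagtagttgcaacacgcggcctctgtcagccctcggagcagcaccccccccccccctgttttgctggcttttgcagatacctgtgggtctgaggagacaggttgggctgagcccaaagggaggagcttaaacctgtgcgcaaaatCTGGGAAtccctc
Fga: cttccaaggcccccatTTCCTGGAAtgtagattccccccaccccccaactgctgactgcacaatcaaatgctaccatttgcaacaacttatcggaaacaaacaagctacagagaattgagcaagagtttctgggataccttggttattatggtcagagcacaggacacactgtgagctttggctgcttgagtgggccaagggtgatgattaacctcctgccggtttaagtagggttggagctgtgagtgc
Fgb: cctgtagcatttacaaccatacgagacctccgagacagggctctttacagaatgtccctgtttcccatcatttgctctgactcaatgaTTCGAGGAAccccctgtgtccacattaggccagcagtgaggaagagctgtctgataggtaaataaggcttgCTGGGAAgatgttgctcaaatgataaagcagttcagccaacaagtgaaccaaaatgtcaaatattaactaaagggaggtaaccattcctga

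The motifs searched were TTCNNNGAA, the core bound by STAT proteins, CTGGGAA, an interleukin-6 response element of acute phase genes, and TTGCGNAA, a core of C/EBP sites. The first and second can share letters, and none of the matches found here overlapped. CTGGGAA was in the windows of Fgg (first base 13 bases before the start) and Fgb (91 before). TTCNNNGAA was in those of Fga (234 before) and Fgb (162 before). TTGCGNAA was in no member's window. Of all 32851 windows of this length in the table, 9.10% held CTGGGAA, 7.02% TTCNNNGAA and 0.670% TTGCGNAA. Windows were found for 6 of the 7 members, and those of Serpina3n, Cp and Saa3 held none of the 3 motifs. A match describes the sequence and says nothing about binding.

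Serpina3n, whose product inhibits serine proteases such as leukocyte elastase and granzyme B, showed the next largest difference after Fgg. Its signal was 7.32, 7.04 and 6.76 on the vehicle arrays and 8.28, 7.55 and 7.57 on the m4PTB arrays. The groups did not overlap and the gap was 0.23, smaller than the vehicle range of 0.56 and the m4PTB range of 0.73. The means were 7.04 ± 0.28 for vehicle and 7.80 ± 0.41 for m4PTB (SD, n = 3 each), which differed by 0.76 (SE 0.21) or 1.69-fold, which ranked 29 in the same order. Leaving out m4PTB replicate 1 gave 0.52, and leaving out vehicle replicate 3 gave 0.62. Only m4PTB replicate 1 exceeded the background limit.

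Of 10 listed relatives from the Serpina3 cluster, 5 were tested, 4 higher and 1 lower, with a median difference of 0.04 and 0 called by limma. Serpina3a, Serpina3h and Serpina3m, those of smallest p, differed by 0.33 (0.21 without m4PTB replicate 3), 0.10 and -0.10 and overlapped between the groups. Genes of this cluster are close in sequence, so probes of one may take up RNA of another, and how far this was so was not tested.

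Hp, Cp and Saa3 did not separate the groups. Haptoglobin (Hp) was at 5.89, 5.73 and 5.92 on the vehicle arrays and at 6.11, 6.23 and 5.68 on the m4PTB arrays. m4PTB replicates 1 and 2 were above all vehicle arrays and replicate 3 below them, and the log2 difference was 0.16 (SE 0.14). It was 0.32 without m4PTB replicate 3 and 0.05 without m4PTB replicate 2, so the Hp difference rested on single arrays. All 6 values lay below the background limit.

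Ceruloplasmin (Cp) was the one member above the background limit on all 6 arrays. It gave 9.88, 9.69 and 9.76 on the vehicle arrays and 9.63, 9.80 and 9.68 on the m4PTB arrays. The values were interleaved, with a log2 difference of -0.07 (SE 0.08) and an SD of 0.09 within each group.

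Saa3 was at 5.19, 5.17 and 5.46 on the vehicle arrays and 5.74, 5.08 and 5.01 on the m4PTB arrays, below the median of the negative controls on all 6. The difference was 0.001 (SE 0.19). It was -0.23 without m4PTB replicate 1 and 0.13 without m4PTB replicate 3, so no direction can be given for this gene.

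m4PTB replicate 1 had the highest m4PTB value for 4 of the 7 members (Fgg, Fga, Serpina3n and Saa3) and m4PTB replicate 2 for the other 3. m4PTB replicate 3 was the lowest m4PTB array for 4 of the 7. Injury markers also varied between arrays. Lcn2, which encodes the injury and acute phase protein NGAL, was at 10.44, 10.58 and 9.35 on the vehicle arrays and 11.26, 10.63 and 10.46 on the m4PTB arrays. Its highest array was m4PTB replicate 1, as for Fgg and Serpina3n, and its lowest vehicle replicate 3, as for Serpina3n. Clu, which encodes clusterin, was at 10.13 to 10.71 against 10.77 to 11.37, and Anxa1, an annexin of inflammation, at 7.19, 7.20 and 6.47 against 7.78, 7.36 and 7.25. For both, vehicle replicate 3 was lowest, m4PTB replicate 1 highest and the groups did not overlap. Their differences were 0.59 and 0.51 (adjusted p by limma of 0.649 and 0.685), and 0.42 and 0.27 without vehicle replicate 3. Timp1, a metalloproteinase inhibitor, differed by 0.33 with overlap, and by 0.14 without that array. Havcr1 (Kim1), a protein of injured proximal tubules by which kidneys had been selected, was at 11.61, 12.03 and 11.50 against 11.97, 11.67 and 11.54. Its lowest array was also vehicle replicate 3, but its highest was vehicle replicate 2, and its difference was 0.01 (SE 0.16). Over 12 tubular injury markers, 10 were higher in m4PTB kidneys, with a median difference of 0.24 and 0 called by limma. With each array's median subtracted, when 6293 of the 18238 genes tested were higher, 8 of these markers were higher. Their summed linear signal was 15431 to 22198 on the vehicle arrays and 20377 to 25640 on the m4PTB arrays. Their part in the Fgg and Serpina3n differences was not tested. Without m4PTB replicate 1 the differences were 0.87 for Fgg, 0.23 for Fga and 0.42 for Lcn2, and without vehicle replicate 3 they were 0.97, 0.40 and 0.27.

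**Figure D3:**
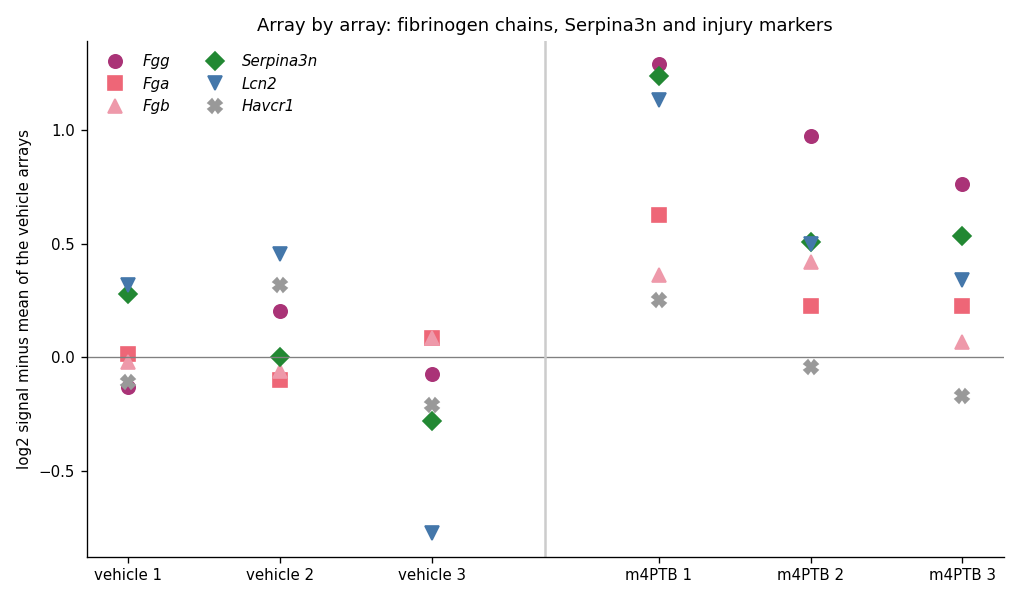
Log2 signal minus the mean of the vehicle arrays (vertical axis) on each of the 6 arrays, for the 3 fibrinogen chains, Serpina3n and the injury markers Lcn2 and Havcr1. On m4PTB replicate 1 Fgg, Serpina3n and Lcn2 lay more than 1 above the vehicle mean, and on vehicle replicate 3 Lcn2 lay lowest.

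Across the 6 arrays Fgg correlated with Fga (Pearson r = 0.85), Fgb (0.82) and Serpina3n (0.87). These values include the difference between the groups on which the genes were selected. For deviations from the group means the same coefficients were 0.53, 0.43 and 0.57, while Fgb and Hp gave 0.97 and Fga and Saa3 also 0.97. They are given as a description over 6 arrays, which share their processing.

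**Figure D4:**
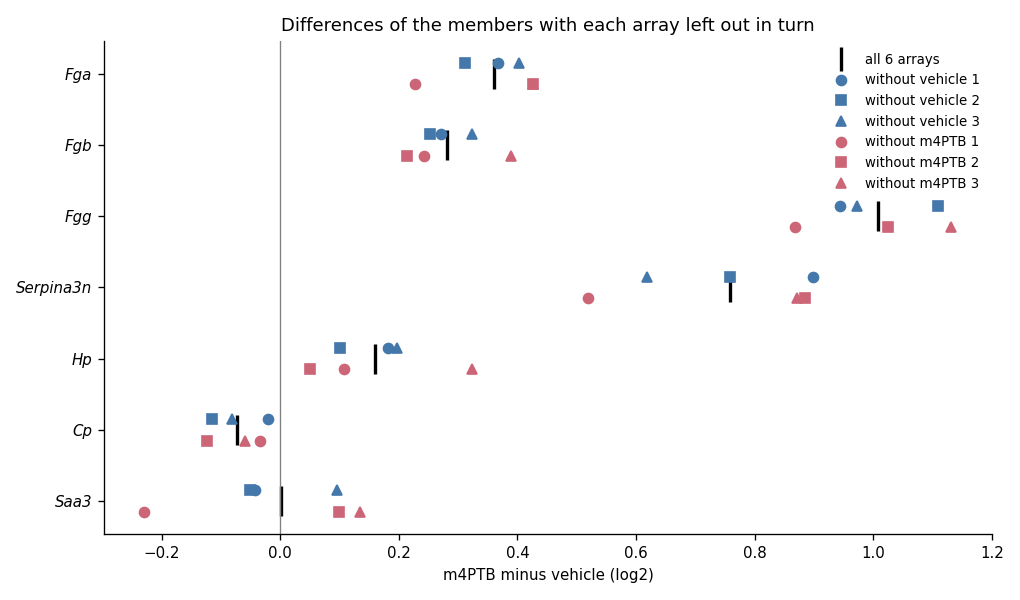
Difference between m4PTB and vehicle (log2, horizontal axis) of each member with all 6 arrays (black bar) and with each array left out. Fgg stayed between 0.87 and 1.13 and Serpina3n between 0.52 and 0.90, while Saa3 lay on both sides of 0.

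Around the members, 203 other tested genes of acute phase, coagulation and related lists were examined, and by limma 0 of them had an adjusted p under 0.05 (smallest adjusted p = 0.624). At an unadjusted p under 0.05, 9 of them (4.43%) were higher and 5 (2.46%) lower, beside 4.67% (852) and 2.56% (466) of all genes tested. Over all genes this split was 441 higher and 1064 lower once each array's median was subtracted, which moved every difference by -0.06. With that shift or with cyclic loess, the medians of 8 of the 20 lists changed sign: other acute phase genes, the Serpina3 cluster, interleukin-6, STAT3 and cytokines, transcription factors, coagulation, fibrinolysis, heme and metals, and neutrophil markers. No direction is read from these lists.

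Other acute phase genes were divided in direction. Of 28 listed genes 21 were tested, 11 higher and 10 lower in m4PTB kidneys, with a median difference of 0.03. The largest difference of this list was that of Lcn2 (0.66, with overlap), which is also counted among the injury markers above. Complement C3 had a mean of 10.53 ± 0.13 in vehicle and 10.96 ± 0.42 in m4PTB kidneys (SD, n = 3 each), which differed by 0.43 (SE 0.19, adjusted p by limma = 0.685), and by 0.26 without m4PTB replicate 1 and 0.66 without m4PTB replicate 3. The groups overlapped, since m4PTB replicate 3 at 10.50 lay below vehicle replicates 1 and 2. Lbp, which encodes the lipopolysaccharide-binding protein, differed by 0.23 (0.14 without m4PTB replicate 1 or vehicle replicate 3), and Serpina10, an inhibitor of activated coagulation factor X, by 0.16. Serpina10 and, picked out after its values were seen, the lipopolysaccharide coreceptor gene Cd14 (0.26) were higher without overlap, and the complement factor gene Cfb (-0.06), also picked out afterwards, was lower without overlap. The liver serum amyloid genes Saa1 and Saa2 did not pass the filter. Saa1 lay at 3.65 to 4.03 on the vehicle arrays and 3.93 to 4.25 on the m4PTB arrays, and Saa2 at 3.72 to 4.28 and 4.44 to 4.47, all below the median of the negative controls. Negative acute phase genes, whose liver output falls in inflammation, were 1 higher and 8 lower of 9 tested, with a median of -0.12. Among them transthyretin (Ttr) differed by -0.46, Apoa1 by -0.33 and F12 by -0.22, all with overlapping groups. Of the 9, 7 lay below the background limit on all 6 arrays, with Apoa1 and F12 among these. Trf, picked out after its values were seen, differed by -0.56 with overlap, and was at 9.33, 7.98 and 7.41 on the vehicle arrays. Ttr, Apoa1, Apoa2, Ahsg and Alb also stand among the hepatocyte markers below, so the 2 lists are not separate. Without m4PTB replicate 3 Apoa1 differed by -0.17 and Ttr by -0.69, and without vehicle replicate 3 F12 differed by -0.09 and Apoa1 by -0.19.

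A list of the interleukin-6 family, STAT3 signalling and other inflammatory cytokines and receptors, such as Tnf and Il1b, was divided in direction. Of its 27 genes 23 were tested, 13 higher and 10 lower, with a median of 0.01. The receptor subunit Il6st differed by 0.02 (SE 0.08), Stat3 by 0.11 (SE 0.08), the feedback inhibitor Socs3 by 0.08 (SE 0.09) and the oncostatin M receptor gene Osmr by 0.17 (SE 0.15). All 4 overlapped between the groups, and their adjusted p by limma lay between 0.726 and 0.950. Il6 itself did not pass the filter, at 3.31 to 3.43 on the vehicle arrays and 3.33 to 3.45 on the m4PTB arrays. The 3 genes of smallest p were the interleukin-6 family cytokine Lif (0.25), the NF-kappaB cofactor Bcl3 (0.18) and the kinase Jak1 (0.15), each higher on all m4PTB arrays and none called (adjusted p = 0.636 for Lif). Without vehicle replicate 3, Jak1 differed by 0.10 and Stat3 by 0.04. Lif lay below the background limit on all 6 arrays.

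Transcription factors known to act on fibrinogen and acute phase promoters were 7 higher and 3 lower of 10, all within 0.11 of 0. Cebpa differed by 0.09 without overlap and Nfkb1 by 0.11 with overlap (-0.02 without vehicle replicate 3). Hnf4a, a regulator of liver and proximal tubule genes, differed by 0.03 (SE 0.07) and lay above the background limit on all 6 arrays. Cebpb and Cebpd, which mediate cytokine responses, differed by -0.03 (SE 0.10) and -0.06 (SE 0.14) and lay below it on all 6. Messenger RNA levels do not show the activity of these factors.

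Coagulation genes were 14 higher and 9 lower of 23 tested, with a median of 0.03. The tissue factor pathway inhibitor Tfpi differed by 0.21, factor V (F5) by 0.22 (0.13 without vehicle replicate 2) and thrombomodulin (Thbd) by 0.17, all below the background limit on all 6 arrays and none called (adjusted p = 0.679 to 0.685). Fibrinolysis genes were 9 higher and 2 lower of 11, with a median of 0.06. The plasmin inhibitor gene Serpinf2 differed by -0.26 and Anxa2, a plasminogen-binding annexin, by 0.25, both with overlapping groups. Serpinf2 differed by -0.15 without m4PTB replicate 2 and Anxa2 by 0.11 without vehicle replicate 3.

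Genes of fibrinogen receptors were 10 higher and 1 lower of 11 tested, with a median of 0.13, against 54.5% higher over all genes. With each array's median subtracted they were 7 higher and 4 lower, with a median of 0.07. Over all genes tested that setting gave 6293 higher and 11945 lower, with a median of -0.05. Itga5, the alpha subunit of the fibronectin receptor, which also binds fibrin, was at 7.57, 7.50 and 7.05 on the vehicle arrays and 7.92, 7.73 and 7.70 on the m4PTB arrays. Its difference was 0.41 (adjusted p = 0.679), and 0.24 without vehicle replicate 3, its lowest array. Itgam, a subunit of the leukocyte receptor for fibrinogen, differed by 0.33 and Itgb3, the beta subunit of the platelet receptor, by 0.17, both with overlapping groups and below the background limit. Leaving out vehicle replicate 3 gave 0.20 for Itgam, and leaving out m4PTB replicate 3 gave 0.21.

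**Figure D5:**
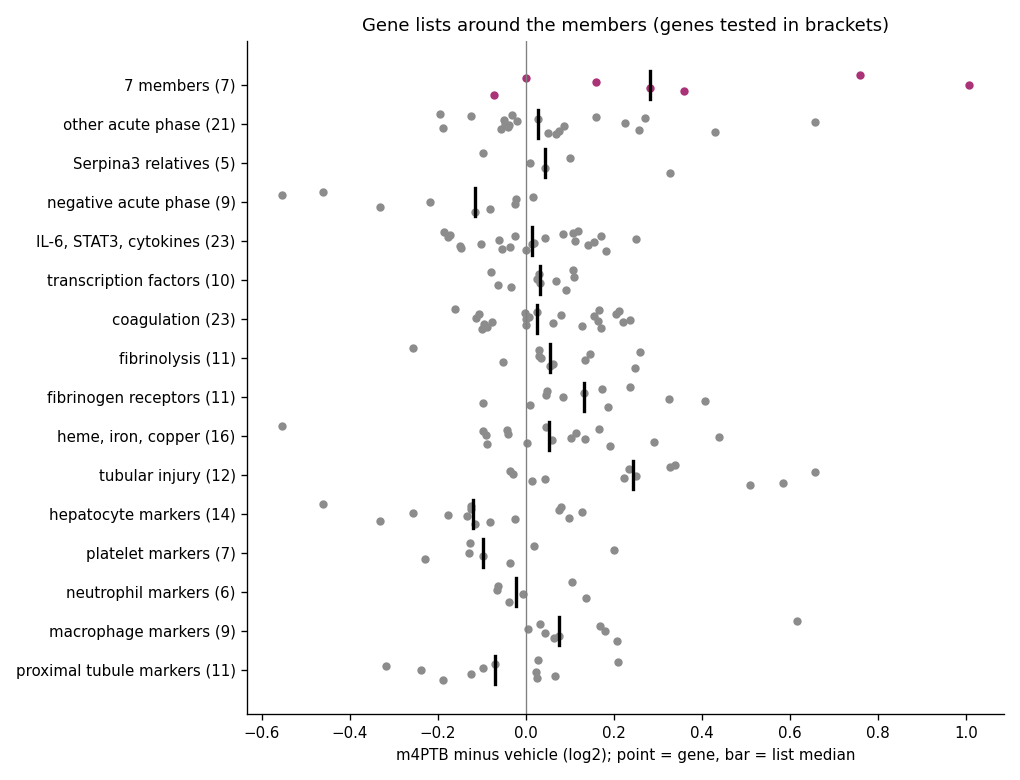
Difference between m4PTB and vehicle (log2, horizontal axis) of every tested gene of 16 lists, with the list median as a bar and the number tested in brackets. Among the lists other than the members, tubular injury (0.24) and fibrinogen receptors (0.13) had the highest medians shown, and the other acute phase list lay at 0.03.

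Markers of other cells that make or carry these transcripts were followed on the same arrays. In bulk tissue, a change in the number of cells of a type and a change in RNA per cell cannot be told apart. Hepatocyte markers were 4 higher and 10 lower of 14 tested, with a median of -0.12 and a summed linear signal of 10268 to 11430 on the vehicle arrays and 8234 to 10835 on the m4PTB arrays. Of these 14, 2 lay above the background limit on at least 3 arrays, Ttr and Cyp2e1, which kidney is also known to express. These 2 made up most of the summed signal. Cyp2e1 had means of 12.98 in vehicle and 12.72 in m4PTB kidneys, and Ttr of 10.70 and 10.24. Albumin (Alb) was at 6.14, 6.63 and 6.93 on the vehicle arrays and 6.71, 6.56 and 6.18 on the m4PTB arrays, below that limit on all 6 and overlapping between the groups. Platelet markers were 2 higher and 5 lower of 7, with a summed signal of 669 to 790 on the vehicle arrays and 678 to 691 on the m4PTB arrays, and all 7 lay below the limit on all 6 arrays. Pf4, a platelet chemokine, differed by 0.20 without overlap, and by 0.10 without m4PTB replicate 1. Gp9 and Itga2b differed by -0.23 and -0.10 with overlap. Neutrophil markers were 2 higher and 4 lower of 6, with a summed signal of 315 to 363 on the vehicle arrays and 320 to 357 on the m4PTB arrays and again none above the limit. Macrophage markers were 9 higher and 0 lower of 9, with a median of 0.08. Their summed signal was 2395 to 3026 on the vehicle arrays and 2758 to 3042 on the m4PTB arrays. Once each array's median was subtracted they were 6 higher and 3 lower, with a median of 0.02. All genes tested were then 6293 higher and 11945 lower, with a median of -0.05. Mrc1, the mannose receptor, differed by 0.62 without overlap (adjusted p = 0.624) and by 0.41 without vehicle replicate 3. Adgre1 and Cd68 differed by 0.21 and 0.18 with overlap, and Cd68 by 0.04 without m4PTB replicate 1. Mrc1 and Adgre1 lay below the background limit on all 6 arrays. The 4 macrophage markers above it on at least 3 arrays were Lyz2, C1qb, Mertk and Csf1r. They differed by 0.17, 0.08, 0.03 and 0.01, all with overlap. Adipocyte markers were 2 higher and 4 lower of 6, with a summed signal of 715 to 763 on the vehicle arrays and 720 to 901 on the m4PTB arrays, and fibroblast markers 4 higher and 3 lower of 7, with a summed signal of 3156 to 3754 on the vehicle arrays and 3536 to 3677 on the m4PTB arrays. Of the latter Dcn differed by -0.28 without overlap, Postn by 0.57 (0.24 without vehicle replicate 3) and Col3a1 by 0.18 (0.04 without that array). Proximal tubule markers were 5 higher and 6 lower of 11, with a median of -0.07 and a summed signal of 56152 to 59374 on the vehicle arrays and 54156 to 55348 on the m4PTB arrays, lower on every m4PTB array than on any vehicle array. With each array's median subtracted, 2 were higher and 9 lower, beside 6293 and 11945 of all genes tested. The summed signal weighs the brightest genes most, and no share of all genes was computed for its separation. By gene, 4 of the 11 were lower without overlap and 0 higher, beside 5.21% and 9.38% of all genes tested. Slc22a8, Miox and Aqp1, those of smallest p, differed by -0.32, -0.24 and -0.19, of which Aqp1 overlapped between the groups. Among the 5 that were higher, Slc5a12 differed by 0.21 and Gatm by 0.07, both with overlap. The part of these cell types in the Fgg and Serpina3n differences was not tested.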

How the data were processed

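Kidney RNA was measured on arrays of the type MoGene-1_0-st-v1, per the file headers. The authors deposited log2 signals per probe set. The submitters' processing notes name RMA and Affymetrix Expression Console 1.1. RMA quantile-normalizes arrays, so a shift of most genes one way would not be seen. The 6 signal columns of the full RMA table match no sample label and were not used. Its annotation named 25004 of 35556 probe sets with 1 symbol, of which 22271 were matched by accession to RefSeq's gene table (GRCm38.p6). Control probe sets were left out. Probe sets that reached 5 on the log2 scale on 3 or more arrays were kept (20968), 1 per gene by highest mean.

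Groups followed the sample titles, and since nothing names separate animals, the spread behind the p-values may be technical. The groups were compared with limma 3.58.1 in R 4.3.3 without covariates, with Benjamini-Hochberg adjustment over all genes, after a test on simulated data. The members, gene lists, motifs and tests were chosen with earlier results of these data known. Besides members, the text names a set of genes fixed with the lists, the 3 of smallest p per list, and the 5 most like the fibrinogen mean. Some genes outside this rule are named too. Among them are Lyz2, C1qb, Mertk, Csf1r, Slc5a12, Gatm and those marked as picked out after their values were seen. The labels give no batch. Some genes and 1 motif that this rule covers are not reported here.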

Additional observations from a re-analysis of the deposited data

How the results depend on the processing

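With each array's median subtracted, with cyclic loess, without the filter on dim probe sets, with the filter raised to the background limit, with the mean over probe sets, with array weights, with trended and robust variances, with the replicate block, and with each array left out, limma called 0 genes at an adjusted p under 0.05. Genes with an unadjusted p under 0.05 numbered 1318 (852 higher and 466 lower), 1505 with each array's median subtracted (441 higher and 1064 lower), 772 with the raised filter, which tested fewer genes, 843 to 1807 with an array left out (843 without m4PTB replicate 1 and 861 without m4PTB replicate 2) and 1105 with the replicate block. The block leaves the differences themselves as they are. The mean difference of the 3 fibrinogen chains was 0.49 to 0.56 over the settings that kept all arrays and 0.45 to 0.65 with an array left out, and the median over the members 0.17 to 0.37 and 0.21 to 0.39. The raised filter kept 2 members, Fgg and Cp, so it gave no value for these summaries. Over all settings run, Fgg, Fga, Fgb, Serpina3n and Hp were higher in m4PTB and Cp lower, where tested, and Saa3 took either direction. Changing the filter, the variances or the block could not alter a member's difference, so those settings say nothing about its direction. Fgg passed the raised filter through its m4PTB arrays alone. The mean over probe sets could move only Fga among the members. Fga was 0.17 with the mean over its probe sets. No pairing by the labels' shared replicate numbers was seen: deviations from the group means of same-numbered arrays correlated at -0.13, -0.05 and -0.08. Arrays of unlike number gave -0.04 to 0.15. With 3 arrays per group such values cannot exclude a pairing. Dim signal limits Fga, Fgb, Hp and Saa3, which lay below the background limit on all 6 arrays. It also bears on Serpina3n, above that limit on 1 array, and on Fgg, below it on every vehicle array.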

Other observations

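Genes of heme, iron and copper handling, which deal with the ligands of haptoglobin and ceruloplasmin, were 10 higher and 6 lower of 16 tested in m4PTB kidneys, with a median log2 difference of 0.05 and 0 called by limma. Heme oxygenase (Hmox1) differed by 0.44 (0.27 without vehicle replicate 3), biliverdin reductase B (Blvrb) by 0.29 (0.17 without m4PTB replicate 1) and the copper transporter gene Atp7a by 0.19 (0.09 without vehicle replicate 3). The last separated the groups without overlap. Receptors and binding partners of serum amyloid A were 4 higher and 2 lower of 6 tested. Of these Scarb1, the HDL receptor, differed by 0.15 without overlap, Cd36, a scavenger receptor, by 0.18 (0.09 without m4PTB replicate 3) and Ager by -0.17 (-0.07 without vehicle replicate 3), none of them called (adjusted p by limma of 0.685 to 0.695). Among genes with fibrinogen-like domains, 2 were higher and 4 lower of 6 tested. Angptl4 differed by 0.29 (0.10 without m4PTB replicate 1 and 0.11 without vehicle replicate 1), Fgl2 by 0.15 (0.10 without vehicle replicate 2) and Fibcd1 by -0.22 (-0.06 without vehicle replicate 3), all overlapping.

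The genes whose values ran most like the mean of the 3 fibrinogen chains over the 6 arrays were Ap2s1, Neil3, Hes2, Frem2 and Ttc13, with Pearson r of 0.983 to 0.997. Over deviations from the group means they were Klhl35, Rprl2, Hspa2, Heatr7b1 and Mobp, with r of 0.995 to 0.999, and no gene stood in both groups of 5. With 6 arrays a high r is a description only. At the lower threshold of r over 0.9, 179 genes passed by the first measure and 295 by the second. These counts are among the 18238 genes tested, with the 3 chains left out.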
